A study of Rattus norvegicus with 6 samples.

Results

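The heat shock proteins and their DNAJ cochaperones were followed in lung tissue of Tmprss2 knockout (KO) and wild-type (WT) rats. They were taken by name from the deposited gene table, as every gene called Hspa, Hspb, Dnaja, Dnajb or Dnajc with a number, plus Hspd1, Hspe1, Hsph1, Hsp90aa1, Hsp90ab1, Hsp90b1, Hsf1, Hsf2 and Bag3. This gave 74 of the 40995 genes of the table. They are 12 HSP70 genes, 8 small heat shock protein genes, 3 HSP90 genes, the single HSP110 gene Hsph1, 2 mitochondrial chaperonin genes, 4 DNAJA, 13 DNAJB and 28 DNAJC genes, and 3 regulators.

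Heat shock proteins bind unfolded or damaged proteins and help them fold, refold or reach the proteasome. HSP70 proteins hold and release a client in a cycle driven by ATP, in which DNAJ proteins deliver the client and start ATP hydrolysis, and nucleotide exchange factors such as HSP110 and BAG3 end it. Small heat shock proteins hold clients without ATP, and HSP90 completes the folding of kinases and steroid receptors. When unfolded proteins accumulate, the transcription factor HSF1 binds heat shock elements and switches on the inducible genes of the family, while other members are made at a steady rate, serve the endoplasmic reticulum (ER) or mitochondria, or belong to muscle or cilia.

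The 3 KO libraries come from lungs of crTMPRSS2 rats, a line in which CRISPR/Cas9 was aimed at Tmprss2, and the 3 WT libraries from lungs of WT rats. Both groups have a Sprague-Dawley background, received no treatment, and are named as biological replicates of a single batch. Sex, age, litter and time of collection are unstated in the sources used here, and no label limits the edit to a cell type. The comparison is of untreated lungs by genotype.

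Total counts were 29933359 to 30514778 in KO libraries and 33033732 to 36895162 in WT libraries. Levels are given as CPM, counts per 1e6 counts of the library after TMM scaling. Tmprss2 itself stood at 46.1, 56.4 and 47.03 CPM in KO libraries, against 50.5, 61.98 and 65.7 CPM in WT libraries, and did not pass the test (adjusted p by edgeR 0.508 with all 6 libraries and 0.0589 without WT replicate 1). A gene-level count need not register a short edit, so it does not check the genotype. Alveolar type 2 cell markers summed to 15689 to 17191 CPM in KO libraries and 18662 to 30542 CPM in WT libraries. WT replicate 1 stood apart: its 12 skeletal muscle markers summed to 10319 CPM, against 37.2 to 141 CPM in the other 5 libraries, and its 8 squamous epithelium markers to 3298 CPM, against 2.33 to 7.75 CPM. Between the groups, NK and T cell markers summed to 164 to 171 CPM in KO libraries and 29.4 to 90.2 CPM in WT libraries, B and plasma cell markers to 158 to 175 CPM in KO libraries and 66.7 to 101 CPM in WT libraries, and club cell markers to 5609.8 to 6538 CPM in KO libraries and 3839 to 4848 CPM in WT libraries. On the lower side, mesothelium markers summed to 76.5 to 125 CPM in KO libraries and 145 to 187 CPM in WT libraries, and macrophage markers to 139 to 169.8 CPM in KO libraries and 194 to 211 CPM in WT libraries, without overlap, while erythroid markers, 3 of 4 of them lower without WT replicate 1, overlapped at 361 to 938 CPM in KO libraries and 507 to 1786 CPM in WT libraries. The fits were therefore run with all 6 libraries and without WT replicate 1, and the part of these other cells in a result was not tested. In whole tissue, fewer cells of a type and less RNA per cell cannot be told apart. The macrophage sum was mostly Mrc1 and Cd68, while Pparg overlapped between the groups and Marco was near 0. The club sum was mostly Scgb1a1, while Cyp2f4 and Scgb3a1 overlapped.

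Promoters of 6 members are shown because they hold the DNA motif through which HSF1 acts. They include 3 genes that were lower in KO libraries without WT replicate 1 (Dnajb1, Bag3 and Hspb1) and 3 genes of the heat-inducible list that did not pass the test (Hspa8, Hsph1 and Hspe1). They were chosen for holding the motif: of the other 2 genes that were lower, the window of Hspa1b held no match and Hsp90aa1 had no entry. On mRatBN7.2 the annotated start of Hspa1b (3855104) lies inside Hspa1l, which ends at 3855571 on the opposite strand. The window before that start may miss the promoter, so the lack of a match does not show that Hspa1b has no element. Each line gives the 150 bases before the annotated start, 5′ to 3′ on the gene's strand, from RefSeq build GRCr8. Capitals mark heat shock elements spelled GAANNTTC or TTCNNGAA, each its own reverse complement, so that both strands were searched. Neighbouring elements can overlap.
Dnajb1, chr19:41431142-41431291, minus strand: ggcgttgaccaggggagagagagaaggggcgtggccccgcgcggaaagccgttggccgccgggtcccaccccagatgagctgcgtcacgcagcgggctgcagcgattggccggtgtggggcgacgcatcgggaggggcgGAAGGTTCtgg
Bag3, chr1:192533310-192533459, plus strand: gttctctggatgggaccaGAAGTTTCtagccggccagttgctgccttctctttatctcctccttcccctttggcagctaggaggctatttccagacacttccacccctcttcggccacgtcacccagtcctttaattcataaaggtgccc
Hspb1, chr12:26432302-26432451, minus strand: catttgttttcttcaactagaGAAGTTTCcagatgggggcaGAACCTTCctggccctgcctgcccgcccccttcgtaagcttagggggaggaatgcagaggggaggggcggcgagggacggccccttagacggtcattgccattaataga
Hspa8, chr8:50080364-50080513, plus strand: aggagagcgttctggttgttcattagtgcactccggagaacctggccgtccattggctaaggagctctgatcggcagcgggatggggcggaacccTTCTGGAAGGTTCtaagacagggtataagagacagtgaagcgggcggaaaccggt
Hsph1, chr12:10427218-10427367, plus strand: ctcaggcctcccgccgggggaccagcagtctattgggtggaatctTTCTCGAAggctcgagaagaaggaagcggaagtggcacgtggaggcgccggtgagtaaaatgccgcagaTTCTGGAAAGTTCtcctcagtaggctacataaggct
Hspe1, chr9:64084177-64084326, plus strand: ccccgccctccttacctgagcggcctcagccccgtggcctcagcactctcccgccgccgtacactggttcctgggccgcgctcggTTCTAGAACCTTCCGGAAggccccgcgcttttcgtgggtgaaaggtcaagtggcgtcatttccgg

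Of the 74 members, 59 had a promoter in the RefSeq table. Within 250 bases before the start, 16 of the 59 (27.1%) held the short element, against 13.5% of 33469 promoters of all genes. A longer form, in which another GAA or TTC unit in alternating orientation follows after 2 more bases, stood in 4 of the 59 (6.78%), against 0.663% of all promoters. The 4 were Hspa8, Hsph1, Hspd1 and Hspe1. Hspd1 and Hspe1 lie head to head on chromosome 9 and their windows share 211 bases on opposite strands, so their elements are the same ones. Dnajb1 held 1 short element that ends at base -4, Bag3 held 1 that starts at base -132, and Hspb1 held 2, starting at bases -129 and -109. These matches describe letters in a window, and binding was not measured.

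With all 6 libraries, 0 of the 68 members that passed the filter on low counts changed by edgeR's quasi-likelihood test (Benjamini-Hochberg adjusted p under 0.05), where 0.0542% of 18464 tested genes did, 0.0162% higher and 0.0379% lower in KO. At an unadjusted p under 0.05 there were 7 members, all lower in KO, where 11.3% of tested genes passed, 6.29% lower and 5.04% higher. DESeq2 called 2 members lower, Bag3 and Dnajb1, which is 2.94% of the members beside 2.71% of all genes, and limma-voom with sample quality weights called 5 (7.35%) beside 9.08% of all genes. Of the 68 members, 42 lay below 0 on the log2 scale (50.3% of all tested genes did), and their median was -0.10, beside -0.0029 over all tested genes. KO libraries lay wholly below WT libraries for 11 of the 68 (16.2%), beside 11.4% of tested genes, and wholly above for 2, Hspa12a and Dnajc2, beside 11.4%.

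Without WT replicate 1, 5 of 69 members (7.25%) were lower and 0 were higher in KO by edgeR, where 3.99% of 18994 tested genes changed, 2.34% lower and 1.65% higher. The 5 were Dnajb1, Bag3, Hspa1b, Hsp90aa1 and Hspb1. All 5 stand on a list of 14 heat-inducible HSF1 targets, of which 13 were in the table and tested, and 0 of the 56 other tested members passed. That list was drawn up with earlier results of these data known, so the split describes these data and tests nothing. At an unadjusted p under 0.05, 18 members were lower and 2 were higher, where 17.8% of tested genes passed, 9.28% lower and 8.52% higher. In that fit 51 of 69 members were below 0 (49.3% of tested genes), with a median of -0.06, beside 0.0036 over all tested genes. For the 13 inducible members the median was -0.28, and for the 56 others -0.03. Groups did not overlap for 20 members on the lower side (29.0%, beside 17.5% of tested genes) and for 5 on the higher side (17.1% of tested genes). Only 2 WT libraries stand behind these values.

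**Figure D1:**
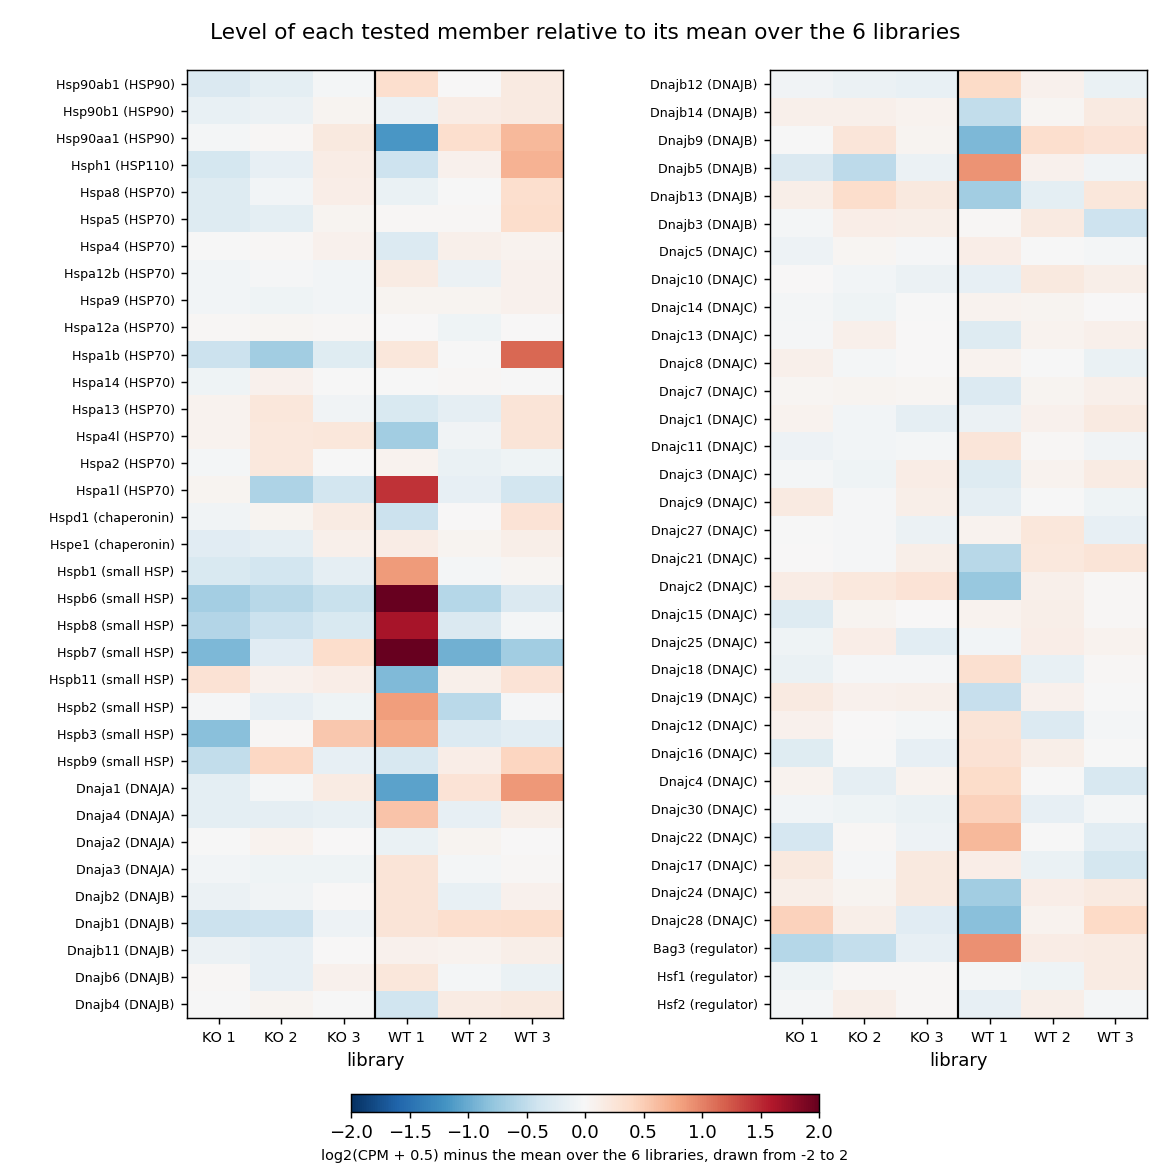
Level of each of the 69 members tested without WT replicate 1, as log2(CPM + 0.5) minus its mean over the 6 libraries (colour, from blue for low to red for high), with KO libraries left of the line and WT libraries right of it, ordered by family. WT replicate 1 departs in both directions, being red for Hspb6 (252 CPM, against at most 34.8 CPM elsewhere) and blue for Hsp90aa1 (174 CPM, against at least 383 CPM elsewhere).

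Dnajb1 is the HSP40 that starts HSP70 cycles on damaged proteins. It was the only member that passed, without WT replicate 1, under every alternative that kept WT replicates 2 and 3. It stood at 59.8, 60.4 and 74.7 CPM in KO libraries, against 96.3, 102 and 103 CPM in WT libraries. Every KO library lay below every WT library, WT replicate 1 included. Its log2 fold change was -0.63 with all 6 libraries (SE 0.12, 95% confidence interval -0.90 to -0.36, adjusted p by edgeR 0.165). It fell by 0.66 on the log2 scale without WT replicate 1 (SE 0.09, adjusted p by edgeR 0.0053), which is 1.58-fold lower. In that fit the alternatives gave log2 fold changes from -0.77 to -0.60; with all 6 libraries they gave -0.74 to -0.57. Leaving out WT replicate 2 or 3 as well leaves 1 WT library, which is then assumed to vary like the KO libraries, here and in the single library losses of the other members. Dnajb1 lies on mRatBN7.2 at chromosome 19, 24522717 to 24526458, minus strand.

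Bag3, a cochaperone that links HSP70 and small heat shock proteins to autophagy, also fell without WT replicate 1 (chromosome 1, 183103038 to 183126862, plus strand). It stood at 39.7, 42.6 and 53.1 CPM in KO libraries, against 112, 66.3 and 66.7 CPM in WT libraries. Groups did not overlap, and WT replicate 1 was the highest library. The log2 fold change was -0.86 with all 6 libraries (SE 0.23, adjusted p by edgeR 0.276) and -0.56 without that library (SE 0.11, adjusted p by edgeR 0.0196). That call was lost without KO replicate 1 or 2 (adjusted p by edgeR 0.0591 and 0.103). Leaving out WT replicate 2 or 3 as well leaves 1 WT library, which gives no WT spread to test against.

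Hspa1b, the stress-inducible HSP70, had the largest fold of the 5 (chromosome 20, 3855104 to 3859148, plus strand). It stood at 16.9, 13.996 and 19.3 CPM in KO libraries, against 26.8, 22.6 and 51.3 CPM in WT libraries. WT replicate 3 was the highest library, and the groups did not overlap. The log2 fold change was -1.01 with all 6 libraries (SE 0.31, adjusted p by edgeR 0.328) and -1.14 without WT replicate 1 (SE 0.27, adjusted p by edgeR 0.0434), 2.21-fold lower. With WT replicate 2 as the only WT library it was -0.44, and with WT replicate 3 as the only one -1.61. The call was lost without KO replicate 1, 2 or 3 (adjusted p by edgeR 0.117, 0.178 and 0.0624). It was also lost with DESeq2 (adjusted p 0.114) and with limma-voom (adjusted p 0.0872, or 0.0635 with quality weights).

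A near-identical copy of Hspa1b, listed as LOC108348108 (chromosome 20, 3870765 to 3873221, plus strand), is not among the 74 names, and reads could be split between the pair. RefSeq build GRCr8 gives the name Hspa1a to the deposited Hspa1b and the name Hspa1b to the copy. The copy stood at 2.75, 4.41 and 4.34 CPM in KO libraries, against 6.94, 6.76 and 17.2 CPM in WT libraries, with WT replicate 3 again the highest. With the counts of both genes summed, a setting chosen after seeing the data, the log2 fold change was -1.25 without WT replicate 1 (adjusted p by edgeR 0.0297) and -1.09 with all 6 libraries (adjusted p by edgeR 0.299). The authors' deposited table lists 192 genes, none with an absolute log2 fold change under 1.00. They are 1.02% of 18916, a number of tested genes inferred from the adjustment of the smallest p-value. Hspa1b is the single member in that table, at -1.01 (adjusted p 0.0381). The copy stands in the authors' deposited table at -1.43 (adjusted p 0.0194).

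Hsp90aa1, the inducible cytosolic HSP90, passed the test without WT replicate 1 (chromosome 6, 129702376 to 129707907, minus strand). It stood at 383, 399.7 and 446 CPM in KO libraries, against 174, 493 and 615 CPM in WT libraries. WT replicate 1 was the lowest of the 6 and WT replicate 3 the highest, so the groups overlapped with all 6 libraries. Its log2 fold change was -0.06 with all 6 (SE 0.40, adjusted p by edgeR 0.95) and -0.43 without WT replicate 1 (SE 0.09, adjusted p by edgeR 0.0296). That call was lost without KO replicate 1 or 2 (adjusted p by edgeR 0.103 and 0.137).

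Hspb1 (HSP27), a small heat shock protein that also binds actin filaments, passed by the smallest margin (chromosome 12, 20794014 to 20795675, minus strand). It stood at 192, 185 and 210.2 CPM in KO libraries, against 429.7, 230.1 and 244 CPM in WT libraries. Here WT replicate 1 was the highest, and no KO library reached a WT library. Its log2 fold change was -0.62 with all 6 libraries (SE 0.24, adjusted p by edgeR 0.406) and -0.28 without WT replicate 1 (SE 0.07, adjusted p by edgeR 0.0497), 1.21-fold lower. Leaving out any further library but KO replicate 3 ended the call (adjusted p by edgeR 0.0975 to 0.192), as did a filter of 1 CPM in 3 libraries (adjusted p 0.0526).

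**Figure D2:**
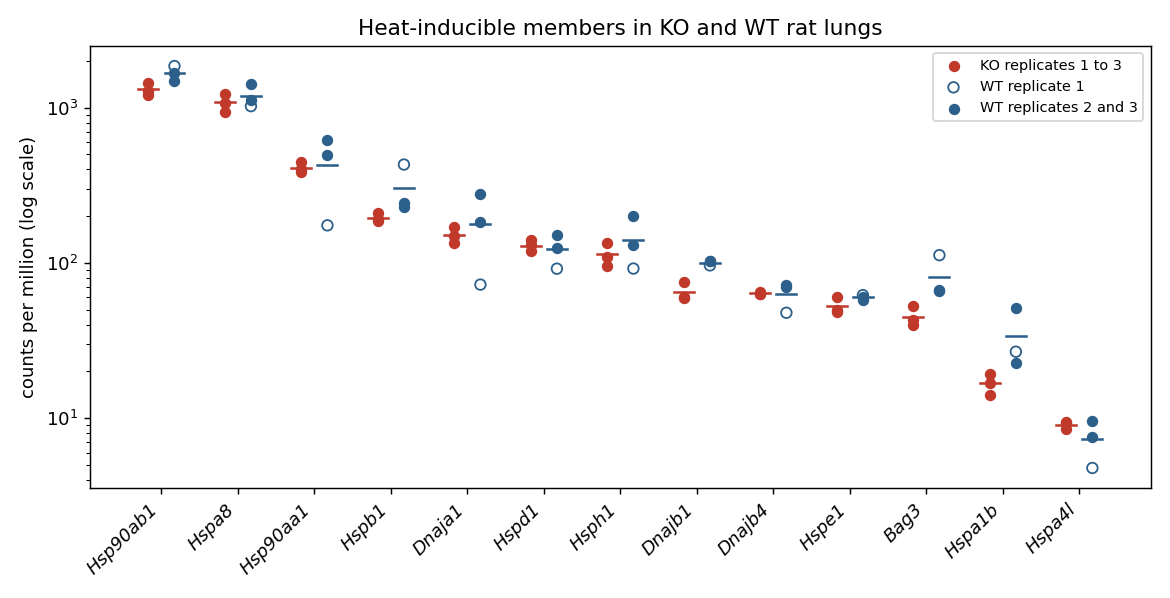
CPM (log axis) of the 13 tested heat-inducible members, with KO libraries left and WT libraries right for each gene; dots are libraries, the open circle is WT replicate 1, and short lines are group means. All KO libraries lie below all WT libraries for Hsp90ab1, Hspb1, Dnajb1, Bag3 and Hspa1b, while WT replicate 1 is the lowest of the 6 for Hsp90aa1, Dnaja1, Hspd1, Hsph1, Dnajb4 and Hspa4l.

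The other 8 inducible members did not pass the test. Dnaja1, an HSP40 of the cytosol, stood at 134, 148 and 171 CPM in KO libraries, against 72.4, 183 and 278 CPM in WT libraries. Its log2 fold change was -0.61 without WT replicate 1 (SE 0.15, adjusted p by edgeR 0.0502) and -0.24 with all 6. Hsph1, the HSP110 exchange factor, stood at 95.9, 109 and 135 CPM in KO libraries, against 91.9, 129.9 and 199.5 CPM in WT libraries. Both genes were highest in WT replicate 3 and lowest in WT replicate 1, and their groups overlapped with all 6 libraries. For Hsph1 the values were -0.54 (SE 0.17, adjusted p by edgeR 0.119) and -0.31. Hspa4l, an HSP110 relative, stood at 8.45, 9.33 and 9.47 CPM in KO libraries, against 4.77, 7.57 and 9.65 CPM in WT libraries and was the inducible member above 0 without WT replicate 1 (0.08, and 0.31 with all 6).

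WT replicate 1 was the lowest library for 6 of the 13 and the highest for 4, beside 37.3% and 36.4% of all tested genes. WT replicate 3 was above WT replicate 2 for all 13, where this holds for 49.6% of all tested genes. All 3 KO libraries were below WT replicate 3 for all 13, where this holds for 30.2% of all tested genes. The latter was not particular to the inducible members. It also held for 9 of 10 members listed as ER-resident and 8 of 8 subunits of the cytosolic chaperonin TRiC. Among 61 other chaperone genes it held for 38, and among the 61 members outside the inducible list for 26. Among KO libraries, replicate 3 was the highest for 12 of the 13, where this holds for 33.9% of all tested genes. The summed level of the 13 was 3304, 3572 and 4043 CPM in KO libraries, against 4083, 4083 and 4935 CPM in WT libraries. Hspa8 and Hsp90ab1, which are made without stress and rise further with heat, supplied 62.5% to 70.4% of these sums. Without them the sums were 1159, 1212 and 1382 CPM in KO libraries, against 1209.8, 1487 and 1849 CPM in WT libraries, with overlap at WT replicate 1. For all 13, the highest KO sum thus lay below the lowest WT sum by less than the spread within either group. The coefficient of variation within a group had a median over the 13 of 12.4% in KO and 32.2% in WT, beside 8.22% in KO and 20.5% in WT over all tested genes.

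Some immediate early genes and some clock and temperature genes also differed between the groups, and their part in the inducible members' values was not tested. The 10 immediate early genes summed to 667, 685 and 709.6 CPM in KO libraries, against 1513, 1064 and 819 CPM in WT libraries, so the sums did not overlap. Within WT libraries this sum was highest in replicate 1, where the inducible sum was highest in replicate 3. Of the 10, 2 passed the test without WT replicate 1 and were lower: Dusp1, a MAP kinase phosphatase (log2 fold change -0.91, adjusted p by edgeR 0.00278; -1.14 and 0.16 with all 6), and Atf3, a stress transcription factor (log2 fold change -1.17, adjusted p by edgeR 0.0255; -1.46 and 0.224 with all 6). The clock and temperature list had 15 tested genes, of which 4 were higher and 1, Cry1, was lower without WT replicate 1 (median log2 fold change 0.036), and 0 passed by edgeR with all 6. Cry1, a clock repressor, stood at 19.3, 20.9 and 16.4 CPM in KO libraries, against 35.8, 27.1 and 27.3 CPM in WT libraries (log2 fold change -0.53, adjusted p by edgeR 0.0282; -0.67 and 0.248 with all 6). Cirbp, an RNA-binding protein induced by mild cold, stood at 148, 135 and 124 CPM in KO libraries, against 87.6, 99.4 and 99.1 CPM in WT libraries, and rose without WT replicate 1 (log2 fold change 0.45, adjusted p by edgeR 0.0113; 0.51 and 0.204 with all 6). Rbm3, another cold-induced gene, stood at 123, 131 and 109 CPM in KO libraries, against 91.6, 113 and 111 CPM in WT libraries, with overlapping groups (log2 fold change 0.11, adjusted p by edgeR 0.521). The clock gene Nr1d1 stood at 42.02, 43.3 and 64.7 CPM in KO libraries, against 14.7, 7.06 and 15.6 CPM in WT libraries, and rose without WT replicate 1 (log2 fold change 2.13, adjusted p by edgeR 0.00399; 2.00 and 0.127 with all 6).

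Per gene length (FPKM), Hsp90ab1 and Hspa8 had the highest levels of the family. Hsp90ab1, the constitutive cytosolic HSP90, averaged 556 ± 48.6 FPKM in KO and 713 ± 83.1 FPKM in WT (SD, n = 3 each). Hspa8, the constitutive HSP70 that also uncoats clathrin vesicles, averaged 509 ± 68.5 FPKM in KO and 559 ± 93.7 FPKM in WT (SD, n = 3 each). Hspb1, Hspa5, Hsp90b1 and Hsp90aa1 followed, with means over all 6 libraries of 278, 212, 207 and 149 FPKM. These 6 were the members at or above 100 FPKM, 41 members reached 10 FPKM, and 7 had less than 1 FPKM. All members together took 0.683% to 0.791% of the counts in KO libraries and 0.705% to 0.888% in WT libraries.

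Of the HSP90 genes, Hsp90ab1 and Hsp90b1 did not pass by edgeR in either fit. Hsp90ab1 stood at 1209.98, 1285 and 1435 CPM in KO libraries, against 1852, 1485 and 1677 CPM in WT libraries. The groups did not overlap, with log2 fold changes of -0.35 with all 6 libraries (SE 0.12, adjusted p by edgeR 0.376) and -0.27 without WT replicate 1 (SE 0.08, adjusted p by edgeR 0.0847, and by DESeq2 0.0101). Hsp90b1, the HSP90 of the ER, stood at 526, 539 and 604 CPM in KO libraries, against 538, 643 and 658 CPM in WT libraries. Its groups overlapped through WT replicate 1. Its log2 fold change was -0.22 without that library (adjusted p by edgeR 0.092, and by DESeq2 0.0204) and -0.14 with all 6 libraries (adjusted p by edgeR 0.632).

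Of the 12 HSP70 genes, Hspa1b was the single one past the test. Hspa8 stood at 935, 1074 and 1226 CPM in KO libraries, against 1021, 1111 and 1409 CPM in WT libraries. Its groups overlapped, and its log2 fold change was -0.22 without WT replicate 1 (SE 0.11, adjusted p by edgeR 0.352) and -0.13 with all 6. Hspa5 (BiP), the HSP70 of the ER, stood at 454, 475 and 564 CPM in KO libraries, against 551, 549 and 693 CPM in WT libraries, with a log2 fold change of -0.32 without WT replicate 1 (adjusted p by edgeR 0.143) and -0.26 with all 6. Hspa9 (mortalin), the HSP70 of mitochondria, stood at 131, 128 and 129 CPM in KO libraries, against 139.9, 139.5 and 144 CPM in WT libraries. Its groups did not overlap, and the log2 fold change was -0.13 without WT replicate 1 (SE 0.06, adjusted p by edgeR 0.259) and -0.13 with all 6.

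Among 10 members listed as ER-resident, which is not a complete list, 0 passed by edgeR in either fit. With all 6 libraries 7 of 10 were below 0, with a median of -0.10 and 0 at an unadjusted p under 0.05. In the fit without WT replicate 1, 9 of 10 were below 0, with a median of -0.18 and 5 at an unadjusted p under 0.05, all lower, beside 49.3% of tested genes below 0, and 17.8% at that p, 9.28% lower. Their summed level was 1391, 1421 and 1574 CPM in KO libraries, against 1475, 1648 and 1806 CPM in WT libraries, with overlapping groups. The mitochondrial list of 11 had 10 members in the table, 0 calls, and a median of -0.08 without WT replicate 1.

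The chaperonin pair that folds proteins inside mitochondria is Hspd1 (HSP60) and Hspe1 (HSP10). Hspd1 stood at 118, 129 and 139.9 CPM in KO libraries, against 91.7, 124 and 150.1 CPM in WT libraries. Hspe1 stood at 48.1, 49.3 and 60.2 CPM in KO libraries, against 61.96, 57.96 and 60.6 CPM in WT libraries. WT replicate 1 was the lowest library for Hspd1 and the highest for Hspe1. Neither passed without WT replicate 1 (adjusted p by edgeR 0.71 for Hspd1 and 0.397 for Hspe1). The log2 fold changes were -0.08 for Hspd1 and -0.17 for Hspe1, against 0.08 for Hspd1 and -0.20 for Hspe1 with all 6.

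Small heat shock proteins of muscle set WT replicate 1 apart from the other libraries. Hspb6 (HSP20), which is abundant in muscle, had the largest excess there of all tested members: it stood at 26.6, 28.8 and 31.1 CPM in KO libraries, against 252, 28.7 and 34.8 CPM in WT libraries. Hspb8, the BAG3 partner in clearing damaged muscle filaments, stood at 30.2, 33.8 and 36.6 CPM in KO libraries, against 144, 36.97 and 44.4 CPM in WT libraries; it was named after its values were seen. Hspb6 and Hspb8 were 8.403 and 3.94 times the mean of the other 5 libraries there. Of the 8 small heat shock proteins, 6 were highest in WT replicate 1.

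Hspb7, a small heat shock protein of heart and skeletal muscle, changed direction with WT replicate 1. It stood at 8.903, 14.5 and 21.8 CPM in KO libraries, against 93.9, 8.53 and 10.3 CPM in WT libraries. Its log2 fold change was -1.32 with all 6 libraries (SE 0.91, adjusted p by edgeR 0.579) and 0.68 without that library (SE 0.29, adjusted p by edgeR 0.268). The 7 heart muscle markers summed to 188, 378 and 856 CPM in KO libraries, against 699, 206 and 319.6 CPM in WT libraries. In WT replicate 1, Actc1 alone gave 649 CPM of that sum, and 5 of the 7 markers were at their lowest there. Myh6, the atrial myosin, stood at 50.9, 106 and 249.7 CPM in KO libraries, against 9.85, 42.1 and 83.1 CPM in WT libraries. In KO libraries both Hspb7 and Myh6 were lowest in replicate 1 and highest in replicate 3, and the part of heart muscle in the Hspb7 values was not tested.

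**Figure D3:**
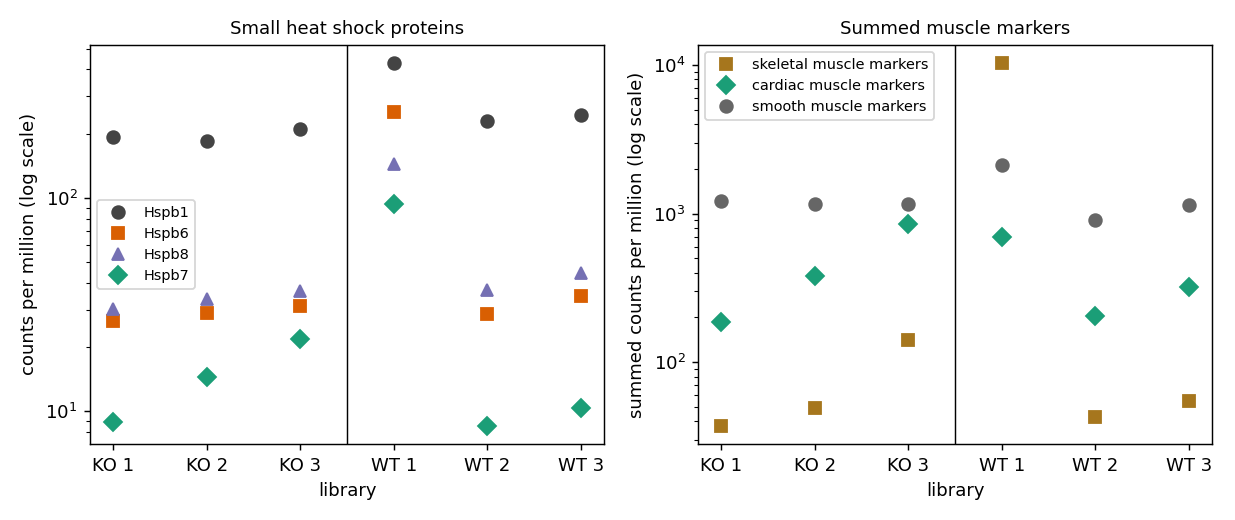
Left, CPM (log axis) of Hspb1, Hspb6, Hspb8 and Hspb7 in each library; right, summed CPM (log axis) of skeletal (12 genes), cardiac (7 genes) and smooth muscle (6 genes) markers in the same libraries, KO left of the line and WT right of it. WT replicate 1 is highest for all 4 genes and for skeletal and smooth muscle markers, whereas the cardiac sum is highest in KO replicate 3 (856 CPM). The cardiac sum of WT replicate 1 is mostly Actc1 (649 CPM), and 5 of the 7 cardiac markers are lowest in that library.

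DNAJ genes outside the inducible list had 0 calls by edgeR in either fit. The 25 tested DNAJC members ran from -0.21 to 0.38 on the log2 scale without WT replicate 1. Dnajc17, an RNA-binding DNAJ protein of the nucleus, stood at the upper end, with 9.81, 8.35 and 9.82 CPM in KO libraries, against 9.38, 7.75 and 6.62 CPM in WT libraries (log2 fold change 0.38, adjusted p by edgeR 0.246; 0.24 with all 6). Dnajc10 (ERdj5), a disulfide reductase of the ER, stood at the lower end, with 109, 105 and 101 CPM in KO libraries, against 97.2, 125 and 118 CPM in WT libraries. Its groups overlapped through WT replicate 1, its lowest library. Dnajc2 (MPP11), a ribosome-bound DNAJ protein, stood at 28.1, 29.3 and 30.5 CPM in KO libraries, against 14.7, 26.9 and 25.7 CPM in WT libraries. Its groups did not overlap, and its log2 fold change without WT replicate 1 was 0.16 (adjusted p by edgeR 0.376), against 0.38 with all 6.

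Without WT replicate 1 the log2 fold change was 0.14 for Dnajc9, a histone chaperone, 0.09 for Dnajc8, a spliceosome-associated protein, 0.18 for Dnajc12, a cochaperone of aromatic amino acid hydroxylases, and 0.08 for Dnajc19, of the mitochondrial import motor. None of these 4 passed with edgeR in that fit, and with all 6 libraries they were 0.18, 0.05, 0.02 and 0.23 in the same order. Of the 11 tested DNAJB members, Dnajb1 was the single one past the test. Dnajb5, a cytosolic HSP40, stood at 20.2, 17.1 and 22.9 CPM in KO libraries, against 46.8, 26.3 and 23.6 CPM in WT libraries, without overlap (log2 fold change -0.32 without WT replicate 1, adjusted p by edgeR 0.224, and -0.69 with all 6). Dnajb13, a radial spoke protein of motile cilia, stood at 6.73, 8.07 and 7.14 CPM in KO libraries, against 3.62, 5.31 and 7.35 CPM in WT libraries (log2 fold change 0.21 without WT replicate 1 and 0.43 with all 6). It was lowest in WT replicate 1, as were all 10 ciliated cell markers, which summed to 295, 297 and 302 CPM in KO libraries, against 132, 232 and 286 CPM in WT libraries. The part of ciliated cells in the Dnajb13 values was not tested.

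The transcription factors of the response did not differ beyond their spread. Hsf1 stood at 51.9, 56.1 and 55.995 CPM in KO libraries, against 53.5, 51.7 and 62.1 CPM in WT libraries, with a log2 fold change of -0.06 and a 95% confidence interval of -0.25 to 0.13 without WT replicate 1 (adjusted p by edgeR 0.8) and -0.03 with all 6. Hsf2 stood at 14.4, 16.05 and 15.1 CPM in KO libraries, against 13.1, 16.1 and 14.3 CPM in WT libraries, with a log2 fold change of -0.0031 and an interval of -0.26 to 0.26 without WT replicate 1 (adjusted p by edgeR 0.994) and 0.06 with all 6. HSF1 activity is set mainly by release from chaperones, trimer formation and phosphorylation, which messenger RNA levels do not measure.

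**Figure D4:**
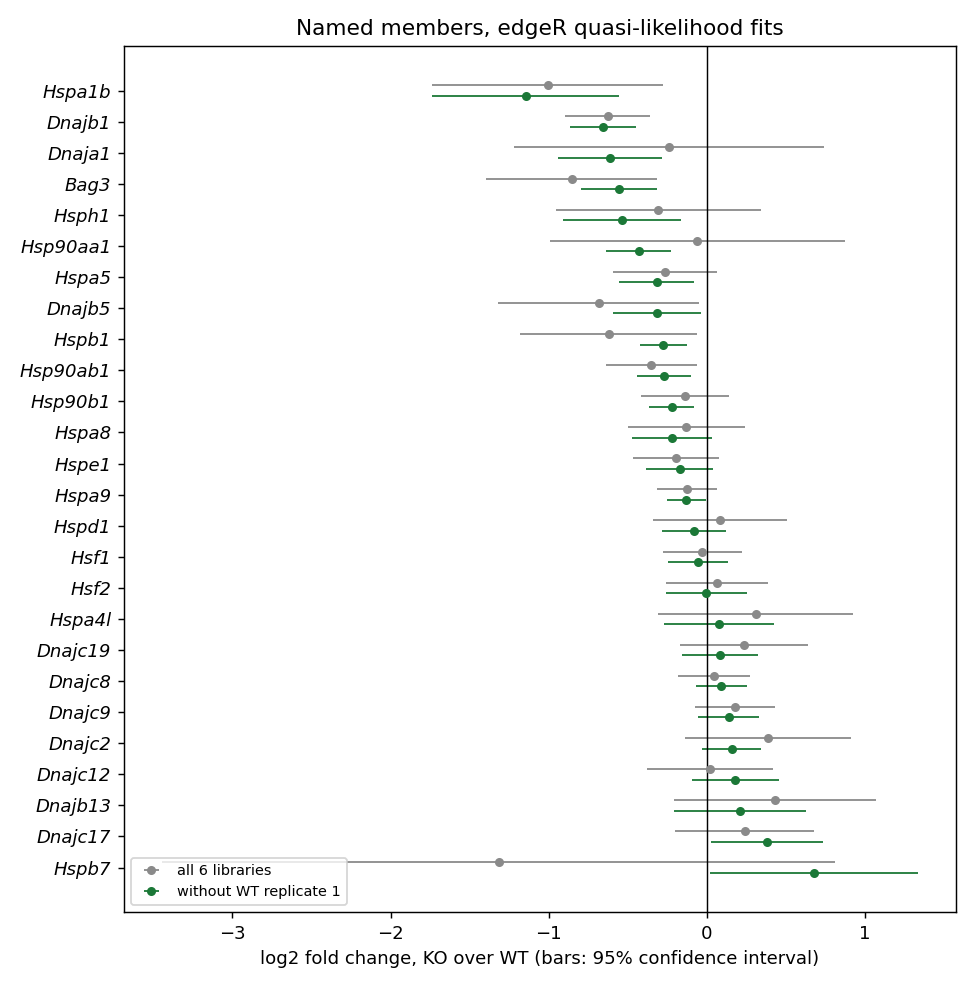
Log2 fold change of KO over WT for the 26 named members with 95% confidence intervals derived from the edgeR test, with all 6 libraries (grey) and without WT replicate 1 (green). Intervals narrow without that library for Hsp90aa1 and Dnaja1, Hspb7 changes side, and Dnajb1 has intervals of -0.90 to -0.36 and -0.87 to -0.45.

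Other chaperones, cochaperones and related genes, not all of them partners of the members, were read from a list of 64, of which 60 were tested. With all 6 libraries 0 passed by edgeR (6 had an unadjusted p under 0.05, all lower, and DESeq2 called 1). Without WT replicate 1, 3 were lower and 0 higher, 5% of the tested list beside the 2.34% of all tested genes called lower. Clpb, a mitochondrial disaggregase, stood at 36.1, 37.6 and 42.6 CPM in KO libraries, against 73.8, 61.3 and 65.1 CPM in WT libraries. It fell by 0.70 on the log2 scale without WT replicate 1 (SE 0.08, adjusted p by edgeR 0.00172), and its value with all 6 libraries was -0.78 (adjusted p by edgeR 0.103). Pdia3, a disulfide isomerase of the ER, stood at 464, 454 and 475 CPM in KO libraries, against 577, 559.7 and 532 CPM in WT libraries, and fell by 0.23 without WT replicate 1 (adjusted p by edgeR 0.0402; -0.26 and 0.376 with all 6). Chordc1, an HSP90 cochaperone, stood at 36.001, 40.3 and 44.5 CPM in KO libraries, against 19.9, 48.98 and 68.8 CPM in WT libraries, and fell by 0.55 without WT replicate 1 (adjusted p by edgeR 0.0481), but with all 6 libraries its groups overlapped and its value was -0.19 (adjusted p by edgeR 0.833). Chordc1 was lowest in WT replicate 1 and highest in WT replicate 3, like Hsp90aa1 and Dnaja1. The 8 subunits of the cytosolic chaperonin TRiC had 0 calls, with a median log2 fold change of -0.08 without WT replicate 1.

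Dnajc6, Dnajb7, Dnajc5g, Dnajc5b and Dnajb8 had too few counts to be tested in either fit, and Hspb9 was tested only without WT replicate 1. Dnajb8 had 0 counts in all 6 libraries, which allows up to 3 counts, or 0.0804 to 0.102 CPM, in each. Other entries of the table carry the same protein match as Hspa8 (38 entries), Hspd1 (20) and Hsp90aa1 (17). They held 1.16% to 1.68% of the summed counts for Hspa8, 3.16% to 8.91% for Hspd1 and 1.41% to 2.07% for Hsp90aa1, so reads of these genes may be split among copies.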

How the data were processed

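Lung RNA was extracted with TRIzol and selected by poly-T beads for paired-end sequencing, per the labels' protocols. The submitters' processing notes name, without roles or settings, CASAVA, featureCounts 2.0.6, HISAT2 2.2.1, DESeq2 1.42.0, StringTie 2.2.3 and build mRatBN7.2. How strand and multi-mapped reads were handled was not given. The authors deposited raw counts per gene and FPKM, which were checked to equal the count over gene length and a library factor. The authors' deposited table of their own comparison holds a normalized signal, log2 fold changes and p-values per gene.

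Counts were tested with edgeR 4.0.16 in R 4.3.3: TMM, filterByExpr (minimum count 10, total 15), a quasi-likelihood test with genotype as the only term, and Benjamini-Hochberg adjustment over all tested genes (threshold 0.05). CPM uses TMM library sizes. Standard errors were derived from the log2 fold change and the F statistic of the edgeR test. The 95% intervals use these with a t quantile at the test's degrees of freedom. Floors cover counting error only. Alternatives were RLE, DESeq2 1.42.0, limma 3.58.1 (voom, without and with quality weights), other filters, a replicate block and leaving out each library. The fit was tested on simulated data. The p-values set the difference between the groups against the spread within the groups of these samples. Members and lists were chosen with earlier results of these data known. Named members are 16 core members found in the table, any past the test with all 6 libraries, and in each fit the 6 smallest p-values per direction, 26 in all. Others appear as extremes, in counts, or were named after their values were seen.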

Additional observations from a re-analysis of the deposited data

How the results depend on the processing

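Calls depended on WT replicate 1. With all 6 libraries 0 members passed by edgeR, under RLE, limma-voom, both other filters and the replicate block alike; DESeq2 called 2 and limma-voom with quality weights 5, all lower (501 and 1676 calls among all genes, 2.71% and 9.08%), and leaving out 1 library called 0 to 5. Without WT replicate 1 the 5 calls became 14 with no filter on low counts (13 lower, 1 higher, with 1707 calls among all genes against 758; the cause was not tested), 4 to 7 under the other settings, and 1 to 7 when a further library was left out; where that leaves 1 WT library, its spread is taken from the KO libraries. The 1 called without KO replicate 1 and without KO replicate 2 was Dnajb1. For the list of other chaperone genes, 0 calls with all 6 libraries became 1 with DESeq2, 5 with quality weights and 0 to 3 with 1 library left out; without WT replicate 1, 3 became 10 with no filter and 1 to 5 with a further library left out.

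The labels state no pairing of the samples by replicate number. Deviations from the group mean correlated across genes at -0.11, 0.043 and -0.11 for same-numbered libraries. Over all KO and WT pairs the correlations ran from -0.17 to 0.16. WT replicate 1 stands apart and so shapes the deviations of every WT library. These values therefore cannot decide whether replicate numbers pair the samples. With the replicate block, 0 members passed with all 6 libraries and 7 without WT replicate 1 (6 lower and 1, Hspb7, higher).

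Some members changed sign under an alternative. With all 6 libraries these were Hsp90aa1 under limma-voom (0.13) and the replicate block (0.11), and, with quality weights, Hsf1 (0.023), Hsf2 (-0.037), Hspd1 (-0.00018) and Hspb7 (0.58). Leaving out 1 library gave ranges of -0.61 to 0.24 for Dnaja1, -0.10 to 0.18 for Dnajc12, -0.0057 to 0.091 for Dnajc8, -0.080 to 0.055 for Hsf1, -0.0031 to 0.15 for Hsf2, -0.43 to 0.30 for Hsp90aa1, -0.23 to 0.016 for Hspa8, -1.79 to 0.68 for Hspb7, -0.085 to 0.26 for Hspd1 and -0.54 to 0.032 for Hsph1. Without WT replicate 1, Hsf2 was 0.0032 with limma-voom, 0.011 with quality weights, 0.0013 at 1 CPM or more in 3 libraries and 0.033 with the block; leaving out a further library gave -0.0037 to 0.46 for Dnajb13, -0.18 to 0.077 for Hsf1, -0.090 to 0.085 for Hsf2, -0.085 to 0.26 for Hspa4l and -0.21 to 0.053 for Hspd1.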
